A study of Mus musculus with 8 samples.

Results

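The globin genes of the mouse were followed by symbol through RNA-seq of long-term hematopoietic stem cells (LT-HSCs) from asrij floxed and asrij KO mice. They are 9 genes of the 54749 genes with a transcript in the deposited counts, 5 of them alpha-like (Hba-a1, Hba-a2, Hba-x, Hbq1a and Hbq1b) and 4 beta-like (Hbb-bs, Hbb-bt, Hbb-bh1 and Hbb-y). All 9 were found in the annotation, and 6 passed the filter on low counts. The 4 floxed libraries (replicates 1, 3, 4 and 5) come from mice homozygous for a floxed asrij allele, and the 4 KO libraries (replicates 2, 3, 4 and 5) from mice lacking asrij in the whole body, so the deletion is not limited to blood cells. The study's methods describe a separate mouse for each library, and mice of both sexes in the study as a whole. All libraries are LT-HSCs sorted from bone marrow at 6 months, by the labels. Asrij is the protein of the gene Ociad1.

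Haemoglobin is a tetramer of alpha-like and beta-like chains, each holding a haem group, and red cells make it in amounts that exceed those of almost any other protein. The genes lie in separate clusters, with embryonic genes at the end nearest the distal enhancers and adult genes further away, and they are switched in order during development. Their transcription depends on the erythroid factors GATA1 and KLF1, and a balance of alpha and beta chains protects red cell precursors from damage by unpaired chains. A stem cell sort is meant to hold cells from before this program. How far the cells sorted here had entered it was not tested.

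The adult genes come in near-identical pairs, and their sequences are shown first because they limit how far counts of a pair can be separated. The coding sequences of Hba-a1 and Hba-a2 (426 bases each without the stop codon, 3 coding exons, chromosome 11, plus strand) differ at a single position, C381T, counted from 1 at the first coding base, with the base of Hba-a1 first. Those of Hbb-bs and Hbb-bt (441 bases each, 3 coding exons, chromosome 7, minus strand) likewise differ only at C417T, with the base of Hbb-bs first. The stretches below hold 20 bases on each side, from GENCODE M21 transcripts on GRCm38, with the differing base in capitals. They lie at chr11:32284323-32284363 for Hba-a1 and chr11:32297140-32297180 for Hba-a2, and at chr7:103826672-103826712 for Hbb-bs and chr7:103812663-103812703 for Hbb-bt, all within coding sequence.
Hba-a1: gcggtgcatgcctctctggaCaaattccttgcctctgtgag
Hba-a2: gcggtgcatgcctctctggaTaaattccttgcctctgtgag
Hbb-bs: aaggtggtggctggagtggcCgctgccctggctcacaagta
Hbb-bt: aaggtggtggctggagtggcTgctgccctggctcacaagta
Of the stretches of 50 bases in the counted transcript of Hba-a1, 67.5% also occur in that of Hba-a2, and 86.9% the other way round. For Hbb-bs in Hbb-bt the share was 65.8%, and for Hbb-bt in Hbb-bs 58.3%. The theta genes Hbq1a and Hbq1b shared 35.1% and 30.5%, while Hba-x, Hbb-y and Hbb-bh1 shared no such stretch with another member. Embryonic genes are further apart, since Hba-x differed from Hba-a1 at 163 of 426 coding bases and Hbb-y from Hbb-bs at 113 of 441. Counts of the sum of a pair are therefore firmer than the split within it.

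The promoters differ by class. RefSeq promoters on GRCm38.p6 were found for 8 of the 9 genes, all but Hbb-bh1, and the 250 bases before each start were searched on both strands for CACCC (the core of sites for KLF1 and related factors), the word CCAAT, the TATA box ATATAA and the word GATAA (the core of sites for GATA factors). None of these words overlaps another of them in the stretches printed here. The 4 adult genes hold CACCC together with CCAAT as well as ATATAA on the coding strand within 120 bases of the start, with CCAAT at positions -88 in Hba-a1, -91 in Hba-a2, -76 in Hbb-bs and -75 in Hbb-bt, and ATATAA at -28, -31, -30 and -29. In the same genes GATAA starts at -182, -185, -209 and -204. The theta promoters hold CCAAT at -149 and no CACCC or GATAA, and that of Hbq1b has ATATAA on the other strand at -156. Hba-x has CACCC with a TATA box and GATAA but no CCAAT, and Hbb-y has CACCC at -111, CCAAT at -83 and GATAA on the other strand at -162. Among all 32851 promoters of this length, 52.0% hold CACCC, 33.8% CCAAT, 9.1% ATATAA and 22.6% GATAA on either strand. Within the last 120 bases, 0.286% of the promoters hold the first 3 words together. The adult alpha and theta promoters are printed to show this contrast, with those words in capitals, at chr11:32296372-32296488 (Hba-a2, plus strand) and chr11:32299949-32300068 (Hbq1a, plus strand). The corresponding 117 bases of Hba-a1 are identical to those of Hba-a2. For the adult beta genes the 30 bases from -94 to -65 are shown, at chr7:103827993-103828022 (Hbb-bs, minus strand) and chr7:103813988-103814017 (Hbb-bt, minus strand), with CACCC and CCAAT of the coding strand in capitals. Hbb-bt also holds CCAAT on the other strand at -80, left in lower case. The stretch lies wholly (Hbb-bs) or partly (Hbb-bt) within the span of an annotated coding transcript of its gene. A match is a word in the sequence, and binding of a factor was not measured.
Hba-a2: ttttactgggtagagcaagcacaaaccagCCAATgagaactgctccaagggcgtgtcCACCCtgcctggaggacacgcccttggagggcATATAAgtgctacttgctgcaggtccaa
Hbq1a: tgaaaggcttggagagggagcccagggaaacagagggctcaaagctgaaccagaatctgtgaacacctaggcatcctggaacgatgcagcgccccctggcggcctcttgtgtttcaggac
Hbb-bs: gccaCACCCtggtaagggCCAATctgctca
Hbb-bt: ggtaaCACCCtggcattggCCAATctgctc

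Gene counts ranged from 23412829 to 44874882 per library. Ociad1 had 31.3 to 66.9 CPM in the floxed libraries and 11.7 to 19.7 CPM in KO libraries (CPM, counts per 1000000 of the TMM-scaled library size), so the groups did not overlap. Floxed replicate 3 stood apart, with a summed level of 10014 CPM over 19 erythroid genes outside haemoglobin against 3100 to 3315 CPM in the other floxed libraries, and with 16577 CPM over 9 neutrophil genes against 46082 to 52742 CPM. Libraries numbered 4 and 5 also differed from those numbered 1 to 3 in both genotypes, a grouping seen in the counts and not given by the labels. The globin results below are therefore also given without floxed replicate 3 and within these numbers, and the gene lists without floxed replicate 3. The 11 stem cell markers were low beside the erythroid and neutrophil genes, at 102.5 to 145.3 CPM in the floxed libraries and 113.1 to 127.1 CPM in KO libraries when summed. Levels differed widely within this list. Kit was the highest, at 56.0 ± 3.95 CPM in the floxed libraries and 50.9 ± 2.85 CPM in KO libraries (SD, n = 4 per genotype). Procr, encoding the surface protein EPCR of LT-HSCs, was the lowest of those tested. Procr had 0.344 ± 0.146 CPM in the floxed libraries and 0.544 ± 0.357 CPM in KO libraries (SD, n = 4 per genotype). Hoxb5 did not pass the filter on low counts.

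Globin counts were a larger part of every KO library than of every floxed library. The 9 genes took 2.85%, 7.66%, 5.02% and 4.9997% of the gene counts in floxed replicates 1, 3, 4 and 5. In KO replicates 2, 3, 4 and 5 they took 13.96%, 12.23%, 20.67% and 24.27%. The lowest KO library was above the highest floxed library, floxed replicate 3. Almost all of this came from Hba-a1, Hba-a2, Hbb-bs and Hbb-bt, since the theta genes took at most 0.00359% of a library. In the KO libraries Hba-a1 had the most counts of any gene, and the 4 adult genes took the first 4 ranks, while in floxed libraries they ranked between 1 and 10. In bulk samples, more cells of a type and more RNA per cell cannot be told apart.

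**Figure D1:**
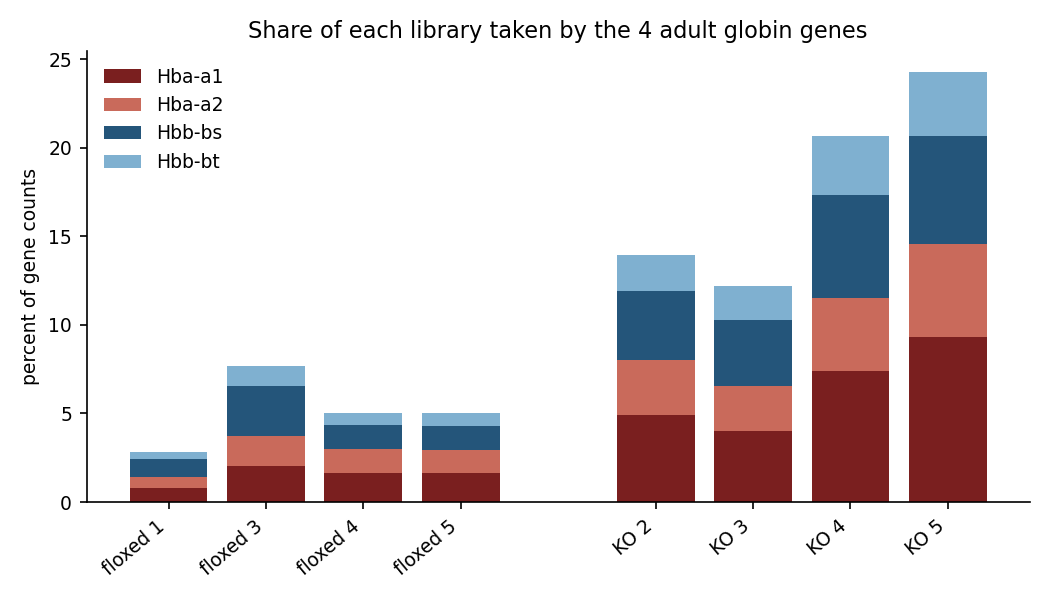
Percent of the gene counts of each library (vertical axis) taken by Hba-a1, Hba-a2, Hbb-bs and Hbb-bt, stacked, for 4 floxed and 4 KO libraries with their replicate numbers. The stacks of the floxed libraries reach 2.85% to 7.66% and those of the KO libraries 12.23% to 24.27%.

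Of the 9 globin genes, 6 could be tested and 4 rose in KO LT-HSCs by both thresholds used in the study, namely Hba-a1, Hbb-bt, Hbq1b and Hbq1a. The thresholds are an adjusted p under 0.05 together with a log2 fold change beyond 1.5 in either direction. The study applied them to transcripts in its own R scripts. Here they were applied to genes in edgeR's quasi-likelihood test. By the same rule 0.452% of the 21902 tested genes were higher and 0.74% lower, and by the adjusted p alone 1.22% and 1.75%. In all 6 tested members every KO library was above every floxed library, which was the case for 7.1% of the tested genes in this direction and for 7.66% in the other. The median log2 fold change of the 6 was 1.83, beside -0.01 for all tested genes. Members that did not pass the filter are given as counts below.

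Hba-a1 (ENSMUSG00000069919.7, chromosome 11, 32283511 to 32284465 on GRCm38) encodes an adult alpha chain. It had 7132, 17061, 16452 and 16096 CPM in the floxed libraries (replicates 1, 3, 4 and 5) and 49035, 38653, 84649 and 110964 CPM in the KO libraries (replicates 2, 3, 4 and 5). The KO libraries lay well above the floxed ones, and floxed replicate 1 was the lowest of all. The means were 14185 ± 4719 CPM in the floxed libraries and 70826 ± 33227 CPM in KO libraries (SD, n = 4 per genotype). The log2 fold change was 2.32 (SE 0.486, adjusted p = 0.0396 in edgeR), which is 4.99-fold.

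Hba-a2 (ENSMUSG00000069917.7, chromosome 11, 32296489 to 32297298) encodes the other adult alpha chain. Its levels were 5934, 14410, 13102 and 12944 CPM in the floxed libraries and 31559, 24103, 47421 and 62895 CPM in the KO libraries, in the same order. The groups did not overlap, but the difference missed the threshold on the adjusted p, with a log2 fold change of 1.84 (SE 0.441, adjusted p = 0.0542 in edgeR). Both alpha genes were lowest in floxed replicate 1 and highest in KO replicate 5.

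Hbb-bs (ENSMUSG00000052305.6, chromosome 7, 103826534 to 103828096) and Hbb-bt (ENSMUSG00000073940.3, chromosome 7, 103812524 to 103813996) encode the adult beta chains. Hbb-bs had 8908, 24093, 13956 and 13847 CPM in the floxed libraries and 38634, 35737, 66457 and 72986 CPM in KO libraries. Here floxed replicate 3 came nearest to the KO libraries. The log2 fold change of Hbb-bs was 1.81 (SE 0.439) with an adjusted p of 0.0560 in edgeR, so it passed the limit on the fold change and missed that on the adjusted p. Hbb-bt had 4033, 9453, 6453 and 6860 CPM in the floxed libraries and 20606, 18857, 37900 and 42724 CPM in KO libraries. Its log2 fold change was 2.16 (SE 0.419, adjusted p = 0.0321 in edgeR), so of the adult beta genes it was the one called. Within each near-identical pair 1 gene was called and the other was not, and the difference between the paired genes is given as a ratio below.

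**Figure D2:**
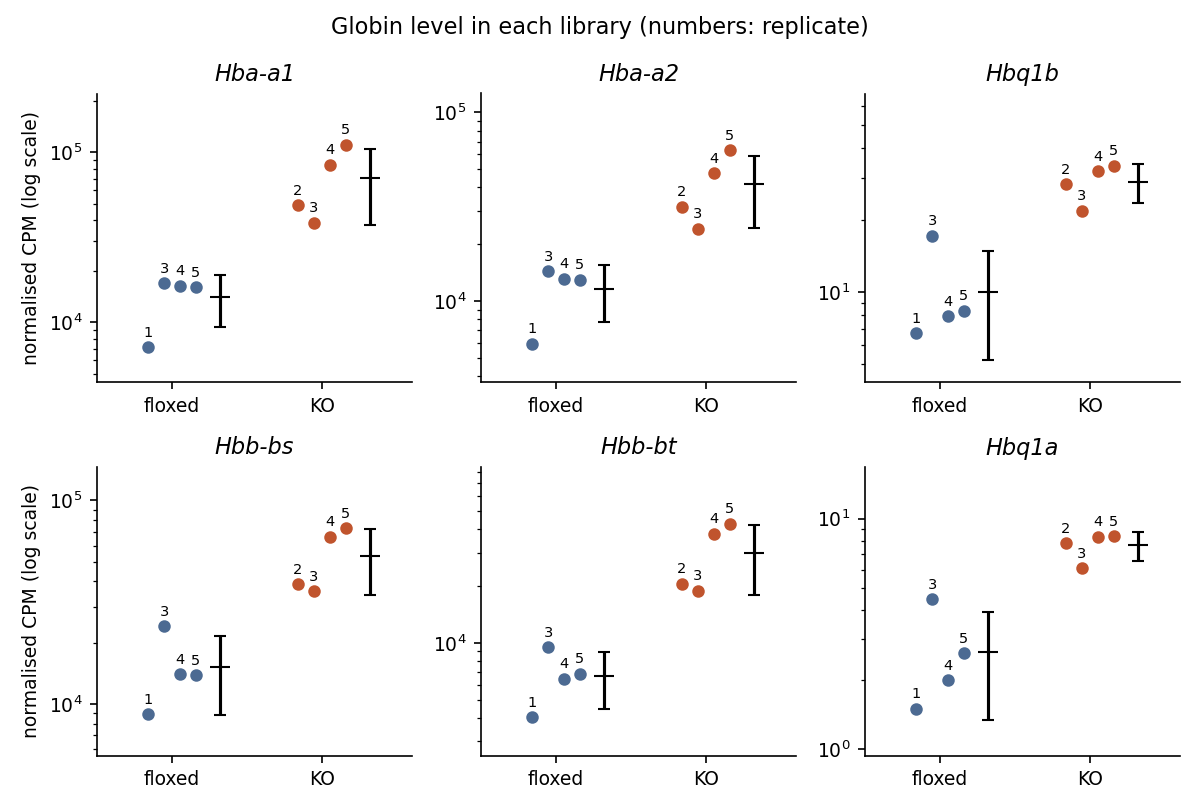
Normalised CPM on a log axis (vertical) of the 6 tested globin genes in the floxed libraries and KO libraries, with replicate numbers beside the points and the mean ± SD (n = 4) as a bar. In each panel the KO libraries lie above the floxed libraries, and floxed replicate 3 is the highest floxed library.

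The theta globins are alpha-like genes of the same cluster with much lower RNA levels. Hbq1b (ENSMUSG00000073063.3, chromosome 11, 32286965 to 32287784) had 6.72, 17.2, 7.91 and 8.35 CPM in the floxed libraries and 28.2, 21.8, 31.97 and 33.8 CPM in KO libraries. It rose by a log2 fold change of 1.52 (SE 0.305, adjusted p = 0.0346 in edgeR). Hbq1a (ENSMUSG00000020295.1, chromosome 11, 32300069 to 32300873) had 1.503, 4.48, 1.998 and 2.61 CPM in the floxed libraries and 7.82, 6.09, 8.34 and 8.37 CPM in KO libraries. It also rose by 1.52 on the log2 scale (SE 0.332, adjusted p = 0.0441 in edgeR). Both values lie just past the limit of 1.5. Hbq1a rested on 47 to 305 counts a library, so counting error alone is up to 14.6% of its lowest count, against 7.33% for Hbq1b and at most 0.257% for the adult genes. Counts of Hbq1a per count of Hbq1b were 0.262 ± 0.0368 in the floxed libraries and 0.266 ± 0.0147 in KO libraries (SD, n = 4 per genotype), within the spread of each other.

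The embryonic genes were near the limit of detection in every library. Hba-x, which encodes the embryonic zeta chain, had 2, 8, 0 and 0 counts in the floxed libraries and 9, 9, 8 and 7 in the KO libraries. Hbb-y, which encodes an embryonic beta-like chain, had 0, 5, 0 and 1 counts in the floxed libraries and 6, 7, 2 and 5 in KO libraries. Hbb-bh1, another embryonic beta-like gene, had 0, 2, 0 and 1 counts in the floxed libraries and 0, 2, 0 and 0 in KO libraries. A count of 0 allows up to 3 counts, or 0.0567 to 0.128 CPM by library, for counting error alone. Since none of the 3 passed the filter, no fold change is given. Together they gave 0 to 4.36 counts per 1000000 adult globin counts in the floxed libraries and 1.501 to 3.99 in KO libraries, so the groups overlapped. The log2 ratio of the embryonic to the adult beta genes (0.5 added to each sum) was -18.84 ± 1.22 in the floxed libraries and -18.88 ± 1.03 in KO libraries (SD, n = 4 per genotype), a difference of -0.04 (exact two-sided permutation test, p = 0.971, adjusted over 4 ratios 0.971). It rests on 0 to 9 counts a library, so a shift of moderate size was not detectable at this depth.

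Per kilobase of the counted spliced transcript, the level of Hbb-bs was the highest in floxed libraries at 24205 ± 10156 CPM, followed by Hba-a2 at 20934 ± 6917, Hba-a1 at 20294 ± 6751 and Hbb-bt at 9530 ± 3158 (SD, n = 4 per genotype). In KO libraries the order was Hba-a1 at 101324 ± 47535, Hbb-bs at 85117 ± 30270, Hba-a2 at 74900 ± 31164 and Hbb-bt at 42706 ± 17162 CPM per kilobase. The first 3 in each order lay within the SDs of their neighbours. Hbb-bt was below Hbb-bs in 8 of 8 libraries. Hbq1b followed at 14.6 ± 7.0 in the floxed libraries and 42.0 ± 7.65 in KO libraries, and Hbq1a at 4.38 ± 2.16 and 12.7 ± 1.78 CPM per kilobase.

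The calls changed with the libraries used. Without floxed replicate 3, all 6 tested members passed both thresholds, with log2 fold changes from 1.92 for Hbq1a to 2.43 for Hba-a1 and adjusted p-values in edgeR from 0.000591 for Hbq1b to 0.0154 for Hba-a2. In that fit 2.47% of all 22094 tested genes were called higher and 1.41% lower, so the balance of the calls turned as well, from 99 higher and 162 lower to 545 and 312. Without any other single library, none of the 6 had an adjusted p under 0.05, although every log2 fold change stayed above 0. Hba-a1 then ranged from 2.04 without KO replicate 5 to 2.53 without KO replicate 3, with adjusted p from 0.0660 to 0.127 in edgeR. In a fit blocked on the replicate number, over numbers 3, 4 and 5, which leaves out floxed replicate 1 and KO replicate 2, the log2 fold changes were 1.39 to 2.13 and the adjusted p-values in edgeR 0.149 to 0.216, so no member was called, where 0.12% of the tested genes were called higher. The same 6 libraries without the block gave adjusted p-values of 0.240 to 0.311, a fit added after the data were seen. With a term for numbers 4 and 5 against 1 to 3, all 6 were called, with adjusted p from 0.00659 for Hba-a1 to 0.0172 for Hbb-bs in edgeR, where 0.913% of all tested genes were called higher.

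The higher globin level was seen within each part of the replicate numbers. On the log2 scale of the summed CPM, KO exceeded floxed libraries by 1.64 within numbers 1 to 3 and by 2.39 within numbers 4 and 5. In the same-numbered pairs the difference was 0.85 for number 3, 2.24 for number 4 and 2.54 for number 5. All 3 pairs went the same way, and number 3 holds the floxed library that stood apart. Whether the genotype difference itself differed between numbers was tested gene by gene with an interaction term. It was 1.154 for Hbb-bs (adjusted p = 0.592), 1.05 for Hbb-bt (adjusted p = 0.586), 0.73 for Hba-a1 (adjusted p = 0.696) and 0.96 for Hbq1b (adjusted p = 0.572) on the log2 scale in edgeR. No gene of the 21902 had an interaction with an adjusted p under 0.05 in edgeR, while 1863 had an unadjusted p under 0.05, and this interaction was run with no other tool.

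Within the adult pool, the split between paired genes separated all KO from all floxed libraries, while the alpha to beta ratio overlapped. Hba-a2 had 0.832, 0.845, 0.796 and 0.804 counts per count of Hba-a1 in floxed libraries and 0.644, 0.624, 0.560 and 0.567 in KO libraries. All KO libraries were below all floxed libraries, and the log2 ratio fell by 0.46 (p = 0.0286 in an exact two-sided permutation test, the lowest value possible with 4 libraries a group, adjusted over 4 ratios 0.0571). Hbb-bt had 0.453, 0.392, 0.462 and 0.495 counts per count of Hbb-bs in the floxed libraries and 0.533, 0.528, 0.570 and 0.585 in KO libraries. Here all KO libraries were above, by 0.30 on the log2 scale (p = 0.0286 in the exact two-sided permutation test, adjusted 0.0571). After adjustment neither ratio passed 0.05, which this design could not reach for fewer than 3 of 4 ratios at the smallest p. Adult alpha counts per adult beta count were 1.01, 0.938, 1.45 and 1.402 in the floxed libraries and 1.36, 1.1495, 1.27 and 1.503 in KO libraries, which overlap. The log2 ratio differed by 0.16 (exact two-sided permutation test, p = 0.4, adjusted 0.533). It was 0.36 higher in KO within numbers 1 to 3 and 0.05 lower within numbers 4 and 5.

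The annotation holds a shorter transcript for each adult alpha gene, with a retained intron and a span of 628 bases. Both have 494 spliced bases and differ at 1 of them, so reads can tell this pair apart only at that base. By sequence, the shorter pair therefore separates the 2 genes less well than the longer one. Chosen after the values were seen and so given with no test, the counts of the shorter Hba-a2 transcript per count of the shorter Hba-a1 transcript were 0.793, 0.804, 0.796 and 0.804 in floxed libraries. In KO libraries they were 0.569, 0.557, 0.559 and 0.566. In numbers 4 and 5 the longer pair gave nearly the same ratios, 0.796 and 0.804 in floxed and 0.560 and 0.567 in KO libraries. There the shorter transcripts had 99.6% to 99.8% of the counts of the longer ones, so the 2 ratios are not separate readings. The means were 0.799 ± 0.00545 and 0.563 ± 0.00582 (SD, n = 4 per genotype), so libraries of a genotype differed by little and the genotypes by far more than that spread. Reads that do not cover the differing base cannot be assigned to either gene by sequence, and how such reads were placed is not given in the sources used here. Whether the mice carry the reference base at this position was not tested.

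**Figure D3:**
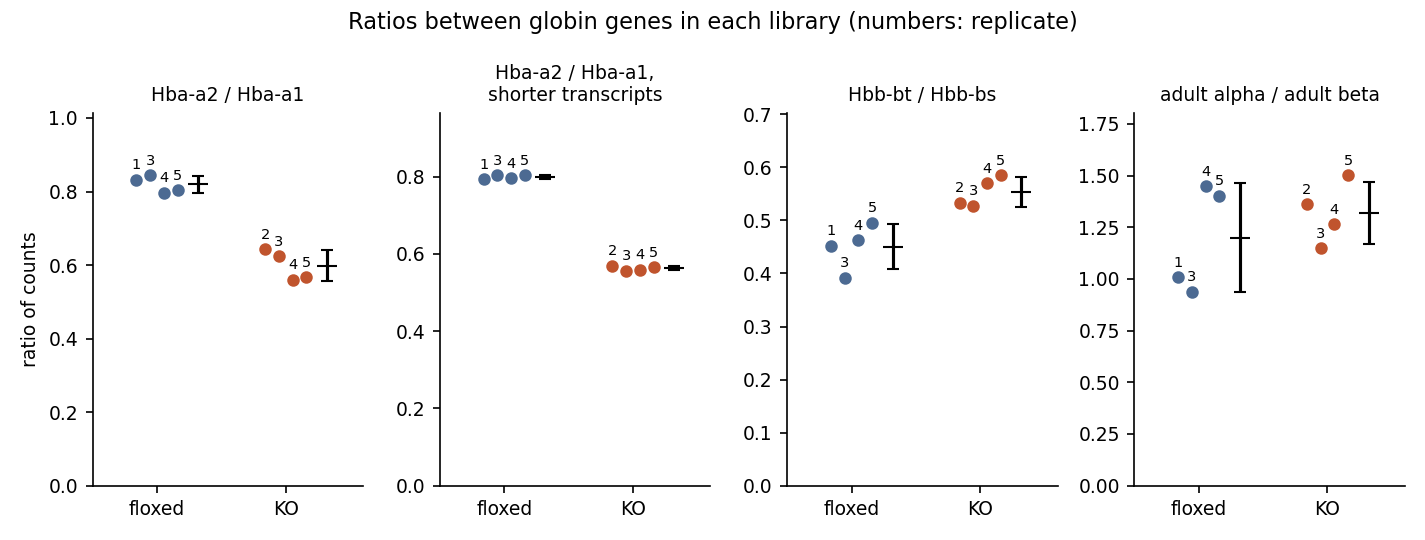
Ratios of counts (vertical axes, from 0) in the floxed libraries and KO libraries, with replicate numbers beside the points and the mean ± SD (n = 4) as a bar, for Hba-a2 to Hba-a1, the same for their shorter transcripts, Hbb-bt to Hbb-bs, and adult alpha to adult beta. The first 2 panels are lower and the third higher in every KO library, and the last overlaps.

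The shorter transcripts also differed by replicate number. The shorter transcript of Hba-a1 had 80.3% to 85.4% of the counts of the longer one in numbers 1 to 3 and 99.8% in numbers 4 and 5. For Hba-a2 this was 73.8% to 79.6% against 99.6% to 99.7%, and for the shorter Hbb-bs transcript inside the longer one 58.7% to 61.0% against 79.8% to 83.4%. The processed pseudogene Hba-ps3 on chromosome 15 had 12.3 to 19.4 counts per 10000 adult alpha counts in numbers 1 to 3 and 0.705 to 2.18 in numbers 4 and 5. These values, chosen after they were seen, overlapped between the genotypes and not between the numbers. Theta counts per 10000 adult alpha counts were 4.45 to 6.89 in numbers 1 to 3 and 2.42 to 3.77 in numbers 4 and 5. The part of such differences in the globin fold changes was not tested beyond the values within numbers above.

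Genes that make haem and assemble haemoglobin were called in 1 of 12 tested cases (of 13 listed, 12 matched a symbol). Of all tested genes 0.452% were called higher. Alad, encoding the enzyme of the second step of haem synthesis, had 63.6 to 90.9 CPM in the floxed libraries and 392.3 to 447.1 CPM in KO libraries. It rose by a log2 fold change of 2.54 (SE 0.178, adjusted p = 0.000455 in edgeR), a larger value than that of any globin, and with floxed replicate 3 close to the other floxed libraries. Urod, a later enzyme of the pathway, passed the adjusted p but not the fold threshold (log2 fold change 1.46, adjusted p = 0.0338 in edgeR). All 12 had positive log2 fold changes with a median of 1.05. In 9 of them every KO library was above every floxed library, which was the case for 7.1% of all tested genes. The first enzyme, Alas2, had a log2 fold change of 1.10 (adjusted p = 0.0816 in edgeR) and 447.3 to 1159 CPM in floxed against 1305 to 1530 CPM in KO libraries. When floxed replicate 3 was left out, 5 of the 12 were called, Alas2, Alad and Urod among them, beside 2.47% of all tested genes called higher in that fit, and with the replicate block Alad was still called (adjusted p = 0.0164 in edgeR).

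Of 15 regulators of globin transcription, 14 were tested and Klf1 and Gata1 rose by both thresholds, beside 0.452% of all tested genes. Klf1, the erythroid factor that binds CACCC words, had 40.3, 124.7, 83.2 and 96.7 CPM in the floxed libraries and 197.2, 177.2, 448.5 and 421.7 CPM in KO libraries (log2 fold change 1.85, SE 0.412, adjusted p = 0.0464 in edgeR). Gata1, which binds GATA words, had 26.0, 79.1, 38.6 and 37.7 CPM in the floxed libraries and 117.9, 105.9, 181.5 and 172.4 CPM in KO libraries (log2 fold change 1.67, SE 0.342, adjusted p = 0.0372 in edgeR). For both, KO replicates 4 and 5 were the highest libraries, as for the adult globins. The repressors of embryonic and fetal globins Bcl11a (0.15) and Zbtb7a (0.18) had log2 fold changes near that of all genes, with adjusted p of 0.660 and 0.652 in edgeR. The list's median was 0.45, and 12 of the 14 were above 0. Without floxed replicate 3 the called regulators were Klf1, Gata1 and Sox6, and with the replicate block none was called, Klf1 and Gata1 each having an adjusted p of 0.141 in edgeR. DESeq2 called 3 regulators and limma-voom 1, where these tools called 0.881% and 0.516% of all tested genes higher.

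**Figure D4:**
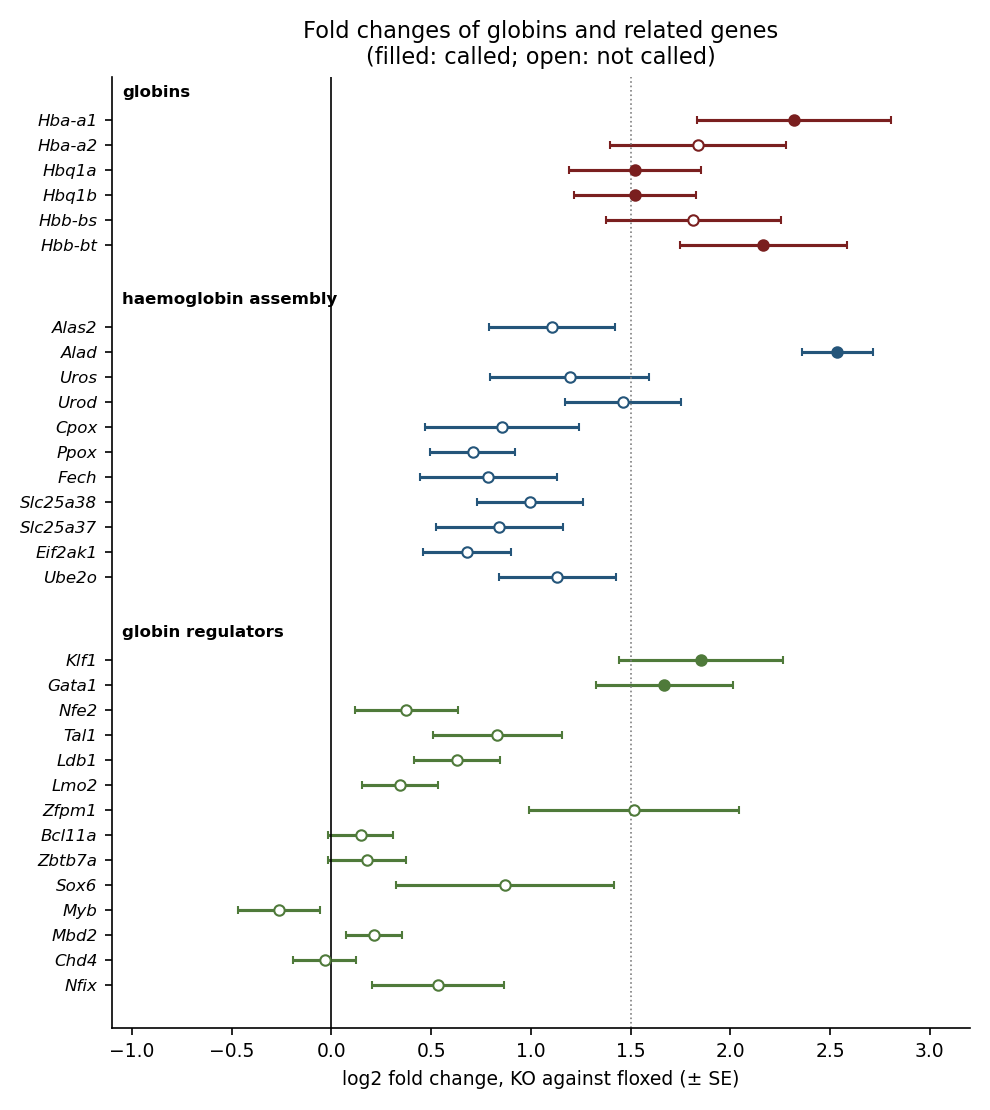
Log2 fold change, KO against floxed, with its SE from edgeR (horizontal axis) for the 6 tested globins, 11 of the 12 tested genes of haem synthesis and haemoglobin assembly and 14 regulators, with filled points for called genes and a dotted line at 1.5. The globins lie between 1.52 and 2.32, Alad at 2.54, and the regulators between -0.26 for Myb and 1.85 for Klf1.

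Other erythroid genes also had higher values in the KO libraries, except that floxed replicate 3 was as high as these in the sum of the genes. Of 19 erythroid genes outside haemoglobin, 19 were tested and all had positive log2 fold changes (median 1.04). In edgeR 1 was called, Cldn13 (1.57, adjusted p = 0.0422), beside 0.452% of all tested genes called higher. Without floxed replicate 3, 12 of the 19 were called in edgeR, beside 2.47% of all tested genes called higher in that fit, while with the replicate block Cldn13 had an adjusted p of 0.127 and was not called. DESeq2 called 2 of them and limma-voom 1. Their summed level was 3315, 10014, 3100 and 3233 CPM in the floxed libraries and 9426, 9285, 9719 and 9828 CPM in KO libraries. Floxed replicate 3 was thus above every KO library in this sum, which does not hold for each gene. In 6 of the 19 genes every KO library was above every floxed library, as in 7.1% of all tested genes. The summed globin level of floxed replicate 3, 65039 CPM, was below the 117379 CPM of the lowest KO library. Globin CPM per erythroid gene CPM were 7.85 and 6.49 in floxed replicates 1 and 3 against 14.8 and 12.6 in KO replicates 2 and 3. In numbers 4 and 5 they were 16.1 and 15.4 in floxed against 24.3 and 29.5 in KO libraries. The KO values were higher within each part of the numbers and overlapped the floxed values across them. This ratio was chosen after the levels were seen and carries no test.

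**Figure D5:**
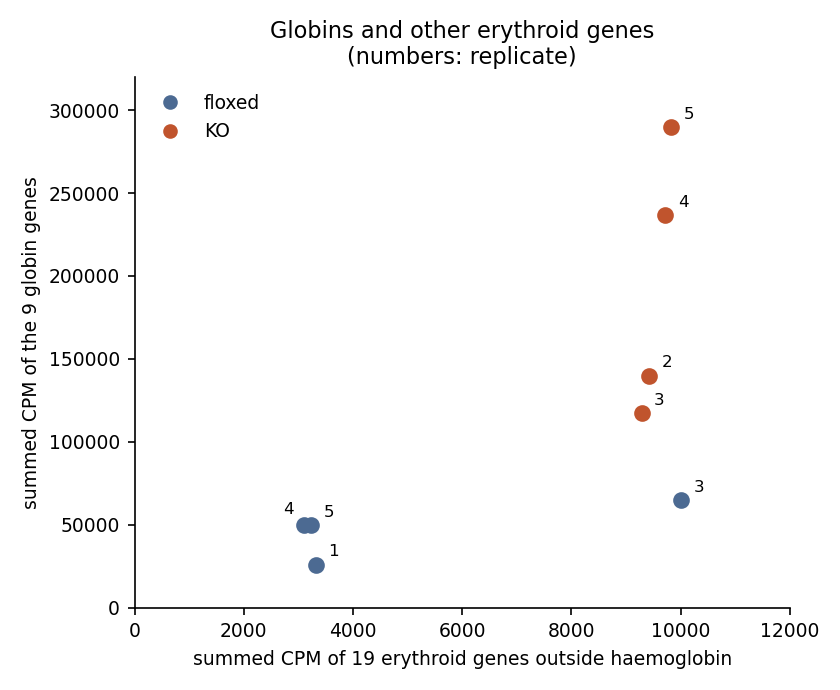
Summed CPM of the 9 globin genes (vertical) against summed CPM of 19 erythroid genes outside haemoglobin (horizontal), both linear, 1 point per library with its replicate number. Floxed replicate 3 lies at 10014 CPM on the horizontal axis, beside the KO libraries at 9285 to 9828 CPM, but at 65039 CPM on the vertical axis, below their 117379 to 289612 CPM.

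Markers of other cell types were present in both genotypes, and their part in the globin levels was not tested. Of all tested genes, edgeR called 0.452% higher and 0.74% lower, or 2.47% and 1.41% without floxed replicate 3. With the replicate block 0.12% were called higher. Megakaryocyte genes had a summed level of 220.7 to 264.2 CPM in KO libraries against 66.5 to 131.9 CPM in floxed libraries, with 3 of 6 called (Pf4 at 2.27, Ppbp at 2.62 and Gp9 at 2.002, adjusted p of 0.00534, 0.0336 and 0.0441 in edgeR). Without floxed replicate 3, 4 were called, and with the replicate block 1, Pf4. Macrophage genes summed to 328.2 to 355.3 CPM in KO and 162.9 to 225.0 CPM in floxed libraries, with 0 of 6 called in edgeR, 2 at an adjusted p under 0.05 and 5 at an unadjusted p under 0.05. The largest changes were in C1qa and C1qc, with log2 fold changes of 1.26 and 1.25. In the fit without floxed replicate 3, 5 of the 6 had an adjusted p under 0.05 in edgeR and again none passed the fold threshold. Neutrophil genes summed to 25046 to 31703 CPM in KO and 16577 to 52742 CPM in floxed libraries, with 0 of 9 called, 0 at an unadjusted p under 0.05 in edgeR, and the largest changes in Lcn2 (-0.76, adjusted p = 0.290) and Mpo (-0.65, adjusted p = 0.273 in edgeR). The summed neutrophil levels did not overlap without floxed replicate 3, since the other floxed libraries were at 46082 to 52742 CPM, and in the fit without it 4 of the 9 genes had an adjusted p under 0.05, Lcn2 at -1.04 (adjusted p = 0.00211) and Mpo at -0.88 (adjusted p = 0.0150 in edgeR) among them. Of 8 B and plasma cell genes, Vpreb1 rose (1.66, adjusted p = 0.0266) and Jchain fell by 1.66 on the log2 scale (adjusted p = 0.0239 in edgeR), with summed levels of 442.1 to 509.9 CPM in KO and 417.6 to 531.2 CPM in floxed libraries. With the replicate block both calls were lost (adjusted p of 0.118 for Vpreb1 and 0.138 for Jchain in edgeR), and without floxed replicate 3 both were kept (1.99 and -1.86 on the log2 scale) and Igll1 was called too. T and NK cell genes summed to 39.5 to 41.7 CPM in KO and 57.5 to 77.3 CPM in floxed libraries, with 0 of 5 called, 3 at an unadjusted p under 0.05 in edgeR, and the largest changes in Cd3d (-1.55, adjusted p = 0.167) and Gzma (-0.83, adjusted p = 0.131 in edgeR). The value of Cd3d rested on floxed replicate 3, with 19.7 CPM there against 2.99 to 3.74 CPM in the other floxed libraries, and without that library it was -0.41 (adjusted p = 0.226 in edgeR). Of 11 stem cell markers 10 were tested, 0 were called and 2 had an unadjusted p under 0.05 in edgeR. In that fit 1 marker, higher in KO, had an adjusted p under 0.05, where 1.22% of all tested genes were higher by the adjusted p alone. Slamf1 had a log2 fold change of 1.06 (adjusted p = 0.171 in edgeR). DESeq2 and limma-voom likewise called 0 macrophage, neutrophil and T and NK cell genes, and of the stem cell markers DESeq2 called 0 and limma-voom 1. Leaving out floxed replicate 3, edgeR called 1 stem cell marker, and Slamf1 was at 1.44 (adjusted p = 0.0365 in edgeR). None of the markers on these lists was at 0 in all libraries. No share of all tested genes stands beside the counts at an unadjusted p. The same holds for the counts at an adjusted p without floxed replicate 3. Whether these counts exceed such a share was not tested.

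No tested neighbour of the clusters was called. Within 100 kb of the alpha cluster, 6 of 7 other genes were tested and 0 called by edgeR, DESeq2 or limma-voom, with 5 at an unadjusted p under 0.05 and 2 at an adjusted p under 0.05 in edgeR, Mpg (log2 fold change 1.19, adjusted p = 0.0316) and Snrnp25 (0.95, adjusted p = 0.0495). Nprl3, whose introns hold the distal alpha globin enhancers, had 30.2 ± 14.2 CPM in the floxed libraries and 64.7 ± 8.80 CPM in KO libraries (SD, n = 4 per genotype), with a log2 fold change of 1.10 (adjusted p = 0.0665 in edgeR). Rhbdf1 (0.35, adjusted p = 0.713), Il9r (-0.81, adjusted p = 0.200) and Sh3pxd2b (-0.81, adjusted p = 0.120 in edgeR) did not pass. By the adjusted p alone, 1.22% of all tested genes were higher and 1.75% lower in edgeR. In 3 of the 6 tested neighbours, Snrnp25, Nprl3 and Mpg, every KO library was above every floxed library, as in 7.1% of all tested genes. No share of all tested genes stands beside the count at an unadjusted p, so whether it exceeds that share was not tested. Without floxed replicate 3 the log2 fold change of Nprl3 was 1.49 (adjusted p = 0.000752), that of Mpg 1.39 and that of Snrnp25 1.12, all under the fold threshold, and with the replicate block none of the 6 had an adjusted p under 0.05 in edgeR. Within 100 kb of the beta cluster, which lies among olfactory receptor genes, 2 of 19 other genes were tested, Olfr66 (0.33, adjusted p = 0.315) and Dnajc19-ps (0.31, adjusted p = 0.359 in edgeR), with 0 at an unadjusted p under 0.05 and 0 called by DESeq2 or limma-voom. Dnajc19-ps lies within the span of Olfr66 on the same strand. Their counts were close, at 573 and 602 in floxed replicate 3 and 386 for both in floxed replicate 4. Whether these are the same reads was not tested, so the 2 are not separate readings. The beta-like genes Hbb-bh2 and Hbb-bh0 had 8 and 3 counts over all 8 libraries. No other gene with a transcript in the files overlapped the span of a member.

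The tested members varied together across libraries, most closely within pairs. As a description over 8 libraries that share their depth and genotype, Pearson's r of log2(CPM + 1) was 0.997 between Hba-a1 and Hba-a2, 0.994 between Hbb-bs and Hbb-bt, and 0.993 between Hbq1a and Hbq1b. After subtracting the genotype means, it was 0.996, 0.980 and 0.965 for these pairs, but 0.654 between Hba-a1 and Hbq1a and 0.860 between Hbb-bs and Hbq1a. The paired genes share stretches of sequence, as given above. Of 10777 other genes with a mean of at least 5 CPM, the 10 most like the summed globin level were Ptp4a3, Glrx5, Map2k3, C1qc, Ptpa, Fzr1, Cyb5r3, Ybx3, Tdpx-ps1 and Klf1, with r from 0.993 to 0.988. Glrx5, which encodes a mitochondrial glutaredoxin of iron-sulfur cluster assembly, averaged 473.1 ± 144.4 CPM over the KO libraries and 119.2 ± 35.1 CPM over the floxed (SD, n = 4 per genotype). These genes were picked for a likeness to a level that separates the genotypes, so no test is given for them. An r over 0.9 was met by 417 of these genes.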

How the data were processed

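The study sequenced RNA of LT-HSCs, 1 library per mouse, from 4 floxed and 4 KO animals. After quality control in FastQC and trimming in Trim Galore, the authors placed reads on GRCm38/mm10 transcripts with Bowtie2. They deposited raw counts for 138930 Ensembl transcripts per library, which are whole numbers. The counting tool, its treatment of strand and of reads with several placements, and a sequencing batch are not given in the sources used here.

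Transcripts were matched to GENCODE M21 (138789 found). Each gene is represented by whichever of its transcripts had the most counts over all 8 libraries, because the files count reads on several transcripts of a gene. For Hbq1b this was a transcript with a retained intron. Counts were filtered with filterByExpr, scaled by TMM and tested with glmQLFTest of edgeR (4.0.16, under R 4.3.3), adjusting p-values over 21902 genes by Benjamini-Hochberg, after the script had been tested on simulated data. CPM use the scaled library sizes. For ratios, exact permutation tests (two-sided, 70 labelings, scipy 1.17.1) were used. Alternatives were other filters, scalings, thresholds, DESeq2 1.42.0, limma-voom (limma 3.58.1), sums over transcripts, the replicate block, a term for the numbers and leaving out each library. Any pair of libraries within a genotype differed beyond counting noise (chi-square 10.7 or more per degree of freedom). The value was 10.7 for KO replicates 4 and 5, and 15.5 for KO replicates 2 and 3 and for floxed replicates 4 and 5. Other pairs had 75.2 to 260. Such values cannot tell repeat libraries of a mouse from separate mice. None was counted as a repeat, since the study's methods describe separate mice. P-values set a difference against the spread between these libraries.

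Numbers 3, 4 and 5 occur in both genotypes, in different mice. Deviations from the genotype mean correlated between libraries of the same number (0.374 to 0.579 across genes), so the blocked values stand beside the calls of the members and lists they change. The 5 pairs with other numbers within 1 to 3 or within 4 and 5 had a mean correlation of 0.458.

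The members and gene lists were chosen with earlier results of these data known. The genes named are all 9 members, the called members of each list or otherwise the 2 with the largest change (all neighbours within 100 kb that were tested), and the 10 genes most correlated with the summed globin level, clone and model names aside. Some list genes are not reported here by name, and 1 is not plotted. Other genes and the ratios so marked were chosen after their values were seen.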

Additional observations from a re-analysis of the deposited data

Results flagged for a closer look

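Among 24 groups of 4 libraries examined over the 6 tested globins and the composition measures, 2 held a library set apart from its 3 fellow libraries, where chance gives about 1.2 (1 in 20). Both were floxed replicate 1, which was low for the adult alpha genes. These 2 genes share most of their sequence and vary together (r = 0.997 over 8 libraries). The 2 groups are thus not separate events. The figure of 1.2 treats all 24 groups as independent and is only a loose guide. On the log2(CPM + 1) scale Hba-a1 was 12.80 there against 13.97 to 14.06 in the other floxed libraries, and Hba-a2 was 12.54 against 13.66 to 13.81. No cause was tested. Without this library the log2 fold changes were 2.12 for Hba-a1 (adjusted p = 0.114) and 1.64 for Hba-a2 (adjusted p = 0.148 in edgeR), so the call of Hba-a1 was lost.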

How the results depend on the processing

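All 6 tested globins kept a positive log2 fold change under each of the 20 alternatives. Over these, Hba-a1 ranged from 2.04 to 2.53, Hbb-bt from 1.91 to 2.38, Hba-a2 from 1.59 to 2.03, Hbb-bs from 1.56 to 2.14, Hbq1b from 1.28 to 1.93 and Hbq1a from 1.29 to 1.92. Their calls were less stable. Of the 20 alternatives, the call of Hba-a1, Hbq1a and Hbq1b was lost in 10 each and that of Hbb-bt in 9, while Hba-a2 and Hbb-bs were called in 5 each, among them the sum over transcripts (adjusted p of 0.0454 and 0.0356) and DESeq2's Wald test. Adjusted p-values for Hba-a1 ran from 2.99e-07 in DESeq2 to 0.257 in numbers 3, 4 and 5 without the block. With library totals and no scaling, the median log2 fold change of all genes was -0.196, the globins kept their direction, and 60 genes were called higher and 253 lower, beside 99 and 162 with TMM.

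The number of called genes, 261, was 503 with DESeq2, 44 with the replicate block, 23 in the same 6 libraries without it (added after the data were seen), 521 with a term for numbers 4 and 5, 651 with the adjusted p alone and 649 with an absolute fold change above 1.5. Leaving out a library gave 51 to 857, with 857 without floxed replicate 3 (545 higher and 312 lower). The cause of these changes was not tested, except that the block used fewer samples. The difference in globin share, 12.6 percentage points, was 7.84 within numbers 1 to 3, 17.5 within 4 and 5, and 5.34 against all transcript counts, whose total holds reads counted more than once. The alpha to beta log2 ratio was -0.047 within numbers 4 and 5 and 0.44 for Hba-a1 to Hbb-bs alone. The embryonic to adult beta ratio, on at most 9 counts a library, reversed to 0.78 within numbers 1 to 3 and ranged from -0.41 to 0.39 without a library. The Hba-a2 to Hba-a1 and Hbb-bt to Hbb-bs ratios kept their direction under every alternative run. For the replicate block, the mean log2 difference of the summed globin level over pairs 3, 4 and 5 was 1.88, and no globin ratio changed direction under that pairing except where named here.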
